A study of Mus musculus with 12 samples.

Results

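The genes around *Saa1* on mouse chromosome 7 were described in colon and urinary bladder of control and YAP/TAZ knockout mice. *Saa1*, which encodes an acute-phase protein of the serum amyloid A family, stood at 0.0282 to 0.0381 TPM in the colon of control mice and at 2085 to 5284 TPM in the colon of knockout mice, and the window of 5 Mb on either side of its start was drawn with that difference known. TPM is a level per length of transcript, scaled to the same total in every library. The members were thus chosen by position around a gene selected on its measured change, and by their level. The window runs from position 41740497 to 51740497 of chromosome 7 (GRCm38). The start of a gene here is its lower coordinate on either strand, and distances from *Saa1* are taken between such starts. For a gene on the minus strand this is where its transcript ends. It lists 431 genes, of which 265 reached 0.5 TPM in fewer than 3 of 6 libraries both in colon and in bladder. Among the genes that did, 7 were left out by name (*Saa1*, *Saa2*, *Saa3*, *Ftl1*, *Kcnc1*, *Klk1*, and *Tead2*), which leaves 159 members of the 19439 genes past the same filter in the series. Of the members, 121 passed in both tissues, 16 in colon alone, and 22 in bladder alone, 138 start before and 21 after the start of *Saa1*, and 129 are protein-coding by the GENCODE annotation.

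Each group comprised 3 libraries, each from the tissue of 1 mouse, and the 12 libraries came from 9 male mice. All mice carried floxed *Yap1* and *Wwtr1* (TAZ) alleles and received 1 mg of tamoxifen per day in 5 injections at 5 to 7 weeks of age, and tissue was taken on day 7 after the first injection. Y/T KO mice carried in addition Myh11-Cre/ERT2, a tamoxifen-inducible recombinase under the smooth muscle myosin heavy chain promoter that is inserted on the Y chromosome, and Ctrl mice were Cre-negative. Ctrl colon came from mice 788, 786, and 787, Y/T KO colon from mice 759, 783, and 780, Ctrl bladder from mice 784, 785, and 788, and Y/T KO bladder from mice 782, 783, and 780. Values below follow these orders of mice. Mice 788, 783, and 780 thus gave both tissues, so that the comparisons in colon and in bladder are not independent. The floxed line was described by its supplier as having a mixed background, and neither floxed gene lies on chromosome 7. The strain from which each mouse inherited this window was not measured here, so that a difference between the genotypes and a difference between inherited segments cannot be told apart.

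YAP and TAZ are transcriptional co-activators that act mainly through TEAD DNA-binding proteins, and recombination was directed to smooth muscle, whereas whole tissue was sequenced. Genes that lie next to each other are inherited together and can share enhancers or chromatin, but neighbours often serve unrelated functions, and the members here range from ribosomal proteins and glycolysis to kallikrein proteases, zinc finger repressors, Siglec receptors of leukocytes, and synaptic proteins.

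Depth was 2.81 to 3.94 gigabases of aligned sequence per library. It was estimated as the most frequent ratio, over genes, of coverage to FPKM, a level per length of transcript and per depth. In whole tissue, *Yap1* was at 41.3 to 47.0 TPM in Y/T KO colon against 45.8 to 54.9 TPM in Ctrl, and at 69.4 to 72.1 against 98.6 to 110 TPM in bladder, so that its ranges overlapped in colon and not in bladder. The ranges of *Wwtr1* overlapped in both tissues. The summed level of 6 colon epithelium genes was 3223 to 4986 TPM in colon and 303 to 374 TPM in bladder, and that of 5 urothelium genes 18.7 to 31.5 and 4335 to 5715 TPM. The 6 smooth muscle markers summed to 7366 to 8103 TPM in Ctrl and 4838 to 5668 TPM in Y/T KO colon, and to 34390 to 44891 and 16235 to 29842 TPM in bladder. Fewer cells of a type and less RNA per cell cannot be told apart in whole tissue. Skeletal muscle markers summed to 1364 to 1974 TPM in Ctrl bladder and to 1265 to 6600 TPM in Y/T KO bladder, where mice 783 and 780 were high.

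The 3 promoters below are shown because they belong to the members that passed the test described below and have an entry in the RefSeq promoter table (119 of the 159 members have one). Each is the 250 bases before the start of transcription in GRCm38.p6, 5′ to 3′ on the strand of the gene, with the TEAD motif CATTCC or its reverse complement in capitals. On the plus strand they lie at chr7:49758856-49759105 for *Htatip2*, chr7:44986650-44986899 for *Gm15545*, and chr7:45699554-45699803 for *Car11*.
Htatip2: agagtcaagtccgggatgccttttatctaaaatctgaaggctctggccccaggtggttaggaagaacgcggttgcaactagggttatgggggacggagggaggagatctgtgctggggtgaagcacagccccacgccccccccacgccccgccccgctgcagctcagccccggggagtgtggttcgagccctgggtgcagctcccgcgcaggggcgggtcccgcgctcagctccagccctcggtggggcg
Gm15545: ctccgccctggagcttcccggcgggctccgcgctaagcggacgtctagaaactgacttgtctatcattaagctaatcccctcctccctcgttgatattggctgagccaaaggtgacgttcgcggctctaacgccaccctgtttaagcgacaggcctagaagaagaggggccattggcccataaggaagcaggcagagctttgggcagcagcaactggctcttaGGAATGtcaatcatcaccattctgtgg
Car11: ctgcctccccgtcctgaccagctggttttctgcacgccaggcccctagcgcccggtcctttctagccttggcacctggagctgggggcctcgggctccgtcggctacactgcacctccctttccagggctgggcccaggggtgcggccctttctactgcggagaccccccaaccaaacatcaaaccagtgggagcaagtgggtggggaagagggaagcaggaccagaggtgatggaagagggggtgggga
The motif CATTCC was searched on both strands together with CACGTG, the E-box bound by clock proteins, and TATAAA. *Gm15545* held 1 CATTCC match, on the reverse strand from base 224 of the stretch, and the promoters of *Htatip2* and *Car11* held none of these motifs. Of 32851 promoters of this length in the table, 12.6% held CATTCC, 6.0% CACGTG, and 12.4% TATAAA. CG pairs numbered 17 in *Htatip2*, 13 in *Gm15545*, and 9 in *Car11*, against a median of 6 in all promoters (quartiles 2 and 16). *Htatip2* and *Car11* each have 2 entries, and the one nearest to the deposited gene start is shown.

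In the colon, 137 members were tested with limma on log2(TPM + 0.1) beside all other genes. Of these, 2 passed an adjusted p of 0.05, *Htatip2* and *Gm31597*, both higher in Y/T KO. Of all 17500 genes tested in colon, 0.137% passed (0.0571% higher and 0.0800% lower). The 3 Y/T KO libraries lay entirely above or below the 3 Ctrl libraries for 42 members, 30 higher and 12 lower (30.7% of members), whereas the groups did not overlap for 16.1% of all genes (8.24% higher and 7.87% lower). At an unadjusted p under 0.05, 32 members were higher and 10 lower, against 9.73% of all genes (5.14% and 4.59%). The median log2 fold change of the members was 0.17 beside 0.01 for all genes. Among these 137, *Gm29791*, *Gm31597*, and *Klk1b4* passed the level filter through Y/T KO alone, so that they had to differ, and the counts are a description. Beside 2 members (24 of all genes) with all libraries, the number called was 0 (5) without Ctrl mouse 786 and 1 (5) without Y/T KO mouse 783 or 780. Without Y/T KO mouse 759 it was 4 (63), so that the number over all genes rose as well. Without mouse 759 the groups did not overlap for 71 of 131 members (54.2%), beside 34.8% of all genes in that fit, and without mouse 786 the median was 0.05.

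In the bladder, 143 members were tested and 4 passed, *Gm31597* and *Htatip2* higher and *Gm15545* and *Car11* lower. Of all 18237 genes tested in bladder, 0.302% passed (0.0823% higher and 0.219% lower). The genotypes did not overlap for 53 members, 21 higher and 32 lower (37.1%), beside 22.0% of all genes (10.6% higher and 11.4% lower). At an unadjusted p under 0.05, 16 members were higher and 30 lower, against 14.8% of all genes (6.64% and 8.20%). Members had a median log2 fold change of -0.09 beside 0.00 for all genes. In bladder, *Gm36546*, *Gm31597*, and *Tulp2* passed the level filter through Y/T KO alone, and *Nell1*, *Sec1*, *Slc17a7*, *Slc6a16*, and *Zfp473* through Ctrl alone. Beside 4 members (55 of all genes) with all libraries, the number called was 1 without Ctrl mouse 784 (29), Ctrl mouse 788 (11), or Y/T KO mouse 782 (51). It was 0 without Ctrl mouse 785 (11) or Y/T KO mouse 783 (19) or 780 (25). It was also 0 without both of the latter, the 2 libraries with the most skeletal muscle marker RNA.

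**Figure D1:**
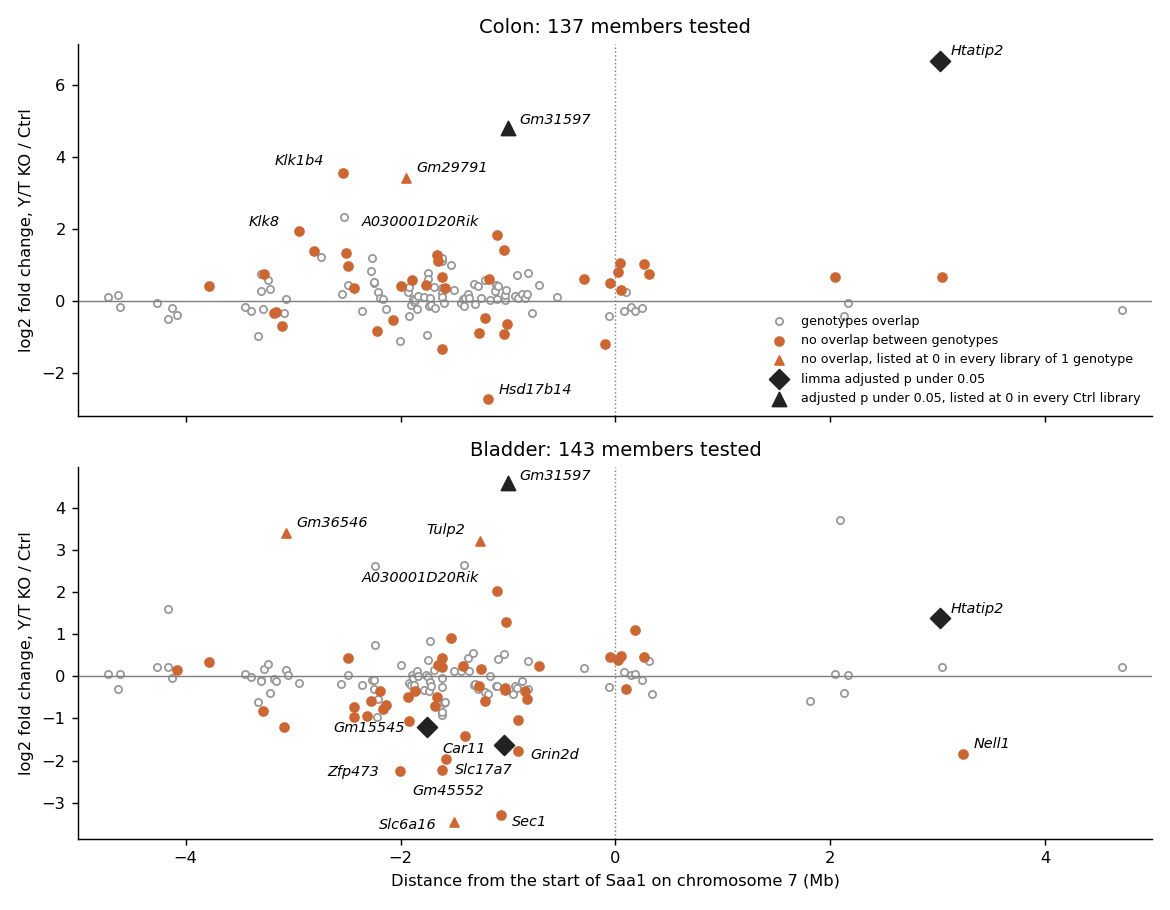
Log2 fold change (Y/T KO over Ctrl, 3 libraries each) of each tested member in colon (upper) and bladder (lower) against the distance of its start (lower coordinate) from that of Saa1 in Mb. Filled symbols (no overlap between genotypes) lie on both sides of Saa1 and of 0, black symbols pass a limma adjusted p of 0.05, triangles are at 0 TPM in every library of 1 genotype so that their height depends on the added 0.1 TPM, and Htatip2 is the highest point in colon.

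*Htatip2* (ENSMUSG00000039745; chr7:49759115-49773975, plus strand), 3019 kb beyond the start of *Saa1*, encodes a protein of the short-chain dehydrogenase family linked to cell death and nuclear import. The Ctrl colons had 0.805, 0.433, and 0.163 TPM of it and the Y/T KO colons 34.0, 64.4, and 57.5 TPM. Every Y/T KO colon thus lay far above every Ctrl colon. The log2 fold change was 6.68 (SE 0.46, n = 3 and 3, limma adjusted p = 0.00458), and mean levels rescaled between libraries were 0.461 ± 0.329 and 52.6 ± 16.1 TPM (SD). In bladder the gene was well expressed in both genotypes, at 35.3, 35.5, and 48.4 TPM (Ctrl) against 114, 96.2, and 97.2 TPM (Y/T KO). The bladder groups did not overlap either (1.38 on the log2 scale, SE 0.13, limma adjusted p = 0.0161). The colon call was lost only without Ctrl mouse 786 among the libraries left out (limma adjusted p = 0.0575). The bladder call held without Ctrl mouse 788 (limma adjusted p = 0.0270) and was lost without any other bladder library (limma adjusted p from 0.0536 to 0.0946). It was also lost when all 12 libraries entered 1 fit, whether no block was used (limma adjusted p = 0.170) or the mouse formed one (limma adjusted p = 0.168).

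Whether the effect of the genotype differed between the tissues was tested with the interaction term over all 12 libraries in the 121 members that passed the filter in both. *Htatip2* was the only member past the threshold (5.31 higher on the log2 scale in colon, SE 0.53, limma adjusted p = 0.00290), beside 0.0552% of the 16298 genes tested (0.0245% larger and 0.0307% smaller in colon). At an unadjusted p under 0.05, 19 members had a larger log2 fold change in colon than in bladder and 0 a smaller one, against 12.6% of all genes (7.03% and 5.61%). The median interaction of the members was 0.32 beside -0.02 for all genes. Next by adjusted p was *Rcn3*, a calcium-binding protein of the endoplasmic reticulum. It stood at 37.3, 35.9, and 39.0 TPM (Ctrl) against 69.4, 122, and 80.7 TPM (Y/T KO) in colon. In bladder its values were 232, 274, and 293 TPM (Ctrl) against 242, 167, and 169 TPM (Y/T KO). Its interaction of 1.73 (SE 0.28) did not pass (limma adjusted p = 0.0701) with all libraries, and passed without Y/T KO colon 759 (1.89, limma adjusted p = 0.0218) or Y/T KO bladder 782 (1.88, limma adjusted p = 0.0367).

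*Gm31597* (ENSMUSG00000109602; chr7:45742049-45750257, plus strand) is an antisense transcript that lies within *Sult2b1*, a cholesterol sulfotransferase gene on the minus strand. It was listed at 0 in each of the 6 Ctrl libraries. Y/T KO colons had 1.96, 2.71, and 3.59 TPM, and Y/T KO bladders 2.94, 1.80, and 2.24 TPM. It passed the level filter through Y/T KO alone in each tissue, so that it had to differ. With all Ctrl values at 0 no fold change is given, and the limma adjusted p was 0.0130 in colon and 0.0156 in bladder. The call was lost in colon without Ctrl mouse 786 (limma adjusted p = 0.0575) and in bladder without Ctrl mouse 785 (limma adjusted p = 0.0679) or Ctrl mouse 788 (limma adjusted p = 0.0676). Without any 1 of the Y/T KO libraries of a tissue it no longer reached the level filter there and had no value. *Sult2b1* stood at 57.3, 42.8, and 51.6 TPM (Ctrl) against 33.2, 29.1, and 31.6 TPM (Y/T KO) in colon (limma adjusted p = 0.372). The strand setting of the gene assignment is not given in the sources used here, so that reads of the pair may have been divided between them, and in bladder *Sult2b1* was at 0.541 TPM or less.

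Other members were at or near 0 in 1 genotype without passing the threshold. *Slc6a16*, an orphan member of the neurotransmitter transporter family, was at 0.691, 1.30, and 1.07 TPM in Ctrl bladder and listed at 0 in all 3 Y/T KO bladders (limma adjusted p = 0.0789). *Tulp2*, a tubby-like protein gene, showed the converse, at 0 in Ctrl bladder, with 0.767, 0.776, and 0.915 TPM after knockout (limma adjusted p = 0.0858). The long noncoding RNA *Gm36546* was likewise at 0 in Ctrl bladder, with 1.35, 0.604, and 1.05 TPM after knockout (limma adjusted p = 0.0838). These 3 genes passed the level filter in bladder through 1 genotype alone, which fixed that the groups were separate, and their levels lie near the filter. *Sec1*, a fucosyltransferase gene next to *Fut2*, was at 0.811, 1.27, and 1.93 TPM (Ctrl) against 0.0561, 0.0720, and 0 TPM (Y/T KO) in bladder (-3.29 on the log2 scale, SE 0.53, limma adjusted p = 0.0838). *A030001D20Rik*, antisense to *Rasip1*, was separate in both tissues. Its colon values were 0.831, 1.13, and 1.10 TPM (Ctrl) against 2.86, 4.70, and 3.93 TPM (Y/T KO) (1.83 on the log2 scale, SE 0.29, limma adjusted p = 0.0958). In bladder it had 1.19, 0.751, and 1.78 TPM (Ctrl) against 6.03, 4.28, and 5.06 TPM (Y/T KO) (2.02, SE 0.32, limma adjusted p = 0.0838). With all 12 libraries in 1 fit, *Slc6a16*, *Tulp2*, *Gm36546*, *Sec1*, *A030001D20Rik*, *Gm31597*, *Grin2d*, and *Gm45552* passed in bladder, 8 members in all, and *Htatip2*, *Gm15545*, and *Car11* did not. The same 8 passed with the mouse as a block in that fit. Of them, *Slc6a16*, *Tulp2*, *Gm36546*, *Sec1*, and *Gm31597* had reached the level filter in bladder through 1 genotype alone, so that their calls rest on genes that had to differ.

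*Gm15545* (ENSMUSG00000087138; chr7:44986900-44994597, plus strand) is antisense to *Bcl2l12*. In Ctrl bladder it was at 23.0, 23.0, and 24.5 TPM and in Y/T KO bladder at 10.7, 8.70, and 11.4 TPM. The groups stood well apart (-1.20 on the log2 scale, SE 0.12, limma adjusted p = 0.0206). *Bcl2l12* on the other strand overlapped between the genotypes, at 11.0, 10.7, and 12.4 TPM (Ctrl) against 14.4, 7.02, and 13.9 TPM (Y/T KO) in bladder. *Car11* (ENSMUSG00000003273; chr7:45699843-45704682, plus strand) encodes a carbonic anhydrase-related protein of neural tissue. It fell from 29.9, 39.4, and 31.8 TPM in Ctrl bladder to 14.4, 8.11, and 10.4 TPM in Y/T KO bladder (-1.64 on the log2 scale, SE 0.21, limma adjusted p = 0.0473). Colon held less *Car11*, at 3.30, 8.02, and 4.06 TPM (Ctrl) against 2.65, 3.01, and 1.71 TPM (Y/T KO), with separate groups but no call (-0.93, SE 0.35, limma adjusted p = 0.483). Leaving out any 1 bladder library ended the call of *Gm15545* (limma adjusted p from 0.0520 to 0.130), and that of *Car11* held only without Y/T KO mouse 782 (limma adjusted p = 0.0318; otherwise 0.104 to 0.193).

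Y/T KO mouse 759, which gave colon but no bladder, stood with the Ctrl colons for some members and with the other Y/T KO colons for others. *Gm15545* was at 24.1, 21.3, and 22.1 TPM (Ctrl) against 20.8, 8.81, and 7.79 TPM (Y/T KO) in colon, the first of these being mouse 759. *Hsd17b14*, an oxidoreductase of the 17-beta-hydroxysteroid dehydrogenase family 1186 kb before *Saa1*, was at 5.66, 4.89, and 5.23 TPM (Ctrl) against 4.22, 0.215, and 0.251 TPM (Y/T KO) in colon. *Zfp473*, whose product takes part in histone messenger processing, had 0.661, 1.54, and 2.03 TPM (Ctrl) against 1.41, 0.267, and 0.352 TPM (Y/T KO) in colon. Mice 783 and 780 were thus low for these 3 genes, while mouse 759 was close to or within the Ctrl range. At *A030001D20Rik*, *Gm31597*, and *Htatip2*, which follow *Hsd17b14* in the order of the chromosome, mouse 759 lay beside mice 783 and 780. For *Gm31597* this had to be so, because it passed the level filter in colon through Y/T KO alone. Position did not separate all members in this way. *Gm45552*, before *Hsd17b14*, had mouse 759 at 0.881 TPM, below the Ctrl colons at 1.57 to 1.89 TPM. With all libraries *Gm15545*, *Hsd17b14*, and *Zfp473* did not pass in colon (log2 fold changes -0.95, -2.74, and -1.11, limma adjusted p = 0.483, 0.480, and 0.611). Without mouse 759, *Hsd17b14* (-3.97, limma adjusted p = 0.00375) and *Gm15545* (-1.39, limma adjusted p = 0.0463) passed, as did *Fcgrt* (1.44, limma adjusted p = 0.0395) and *Htatip2* (6.96, limma adjusted p = 0.00354). The interaction of *Hsd17b14* passed as well then (-3.62, limma adjusted p = 3.72e-04; -2.36 and limma adjusted p = 0.421 with all libraries).

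Counts over all members were also taken on either side of that position. Both mouse 783 and mouse 780 lay beyond the Ctrl colon range on the same side for 48 members before *A030001D20Rik* and for 26 from that gene on, a point chosen after the values were seen. Mouse 759 was inside the Ctrl range for 18 of the 48 (37.5%) and 9 of the 26 (34.6%), beside 42.2% over all genes tested, so that the share for mouse 759 was similar on both sides. In bladder, mouse 782, which gave no colon, was inside the Ctrl range for 14 of 53 (26.4%) and 2 of 23 (8.70%) in the same manner, beside 31.3% over all genes, a lower share from that gene on that was not tested. For *Gm15545* mouse 782 lay with mice 783 and 780. It did so for *Zfp473* as well, but that gene passed the level filter in bladder through Ctrl alone. All Y/T KO bladders thus had to be low for *Zfp473*. *Hsd17b14* was at 19.2, 18.7, and 16.5 TPM (Ctrl) against 16.7, 11.1, and 13.1 TPM (Y/T KO) in bladder, where mouse 782 lay within the Ctrl range (-0.42, SE 0.16, limma adjusted p = 0.300).

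**Figure D2:**
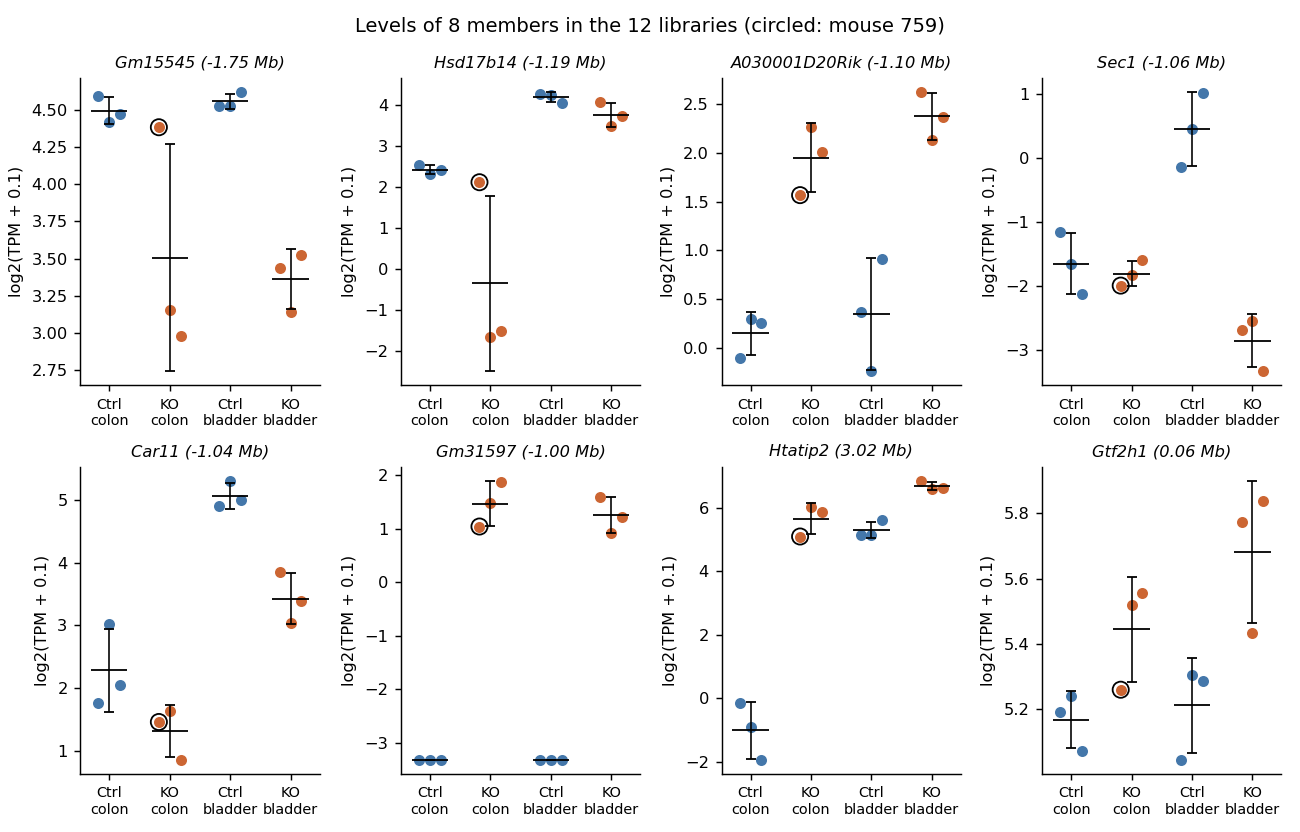
Levels of 8 members in each library as log2(TPM + 0.1), with the distance of each from Saa1 in Mb. Points are libraries, bars the mean and SD of 3 libraries, and axes differ between panels. The circled mouse 759 lies by the Ctrl colons for Gm15545 and Hsd17b14. It lies by the other Y/T KO colons for A030001D20Rik, Htatip2, and Gm31597, the last of which had to by the level filter.

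**Figure D3:**
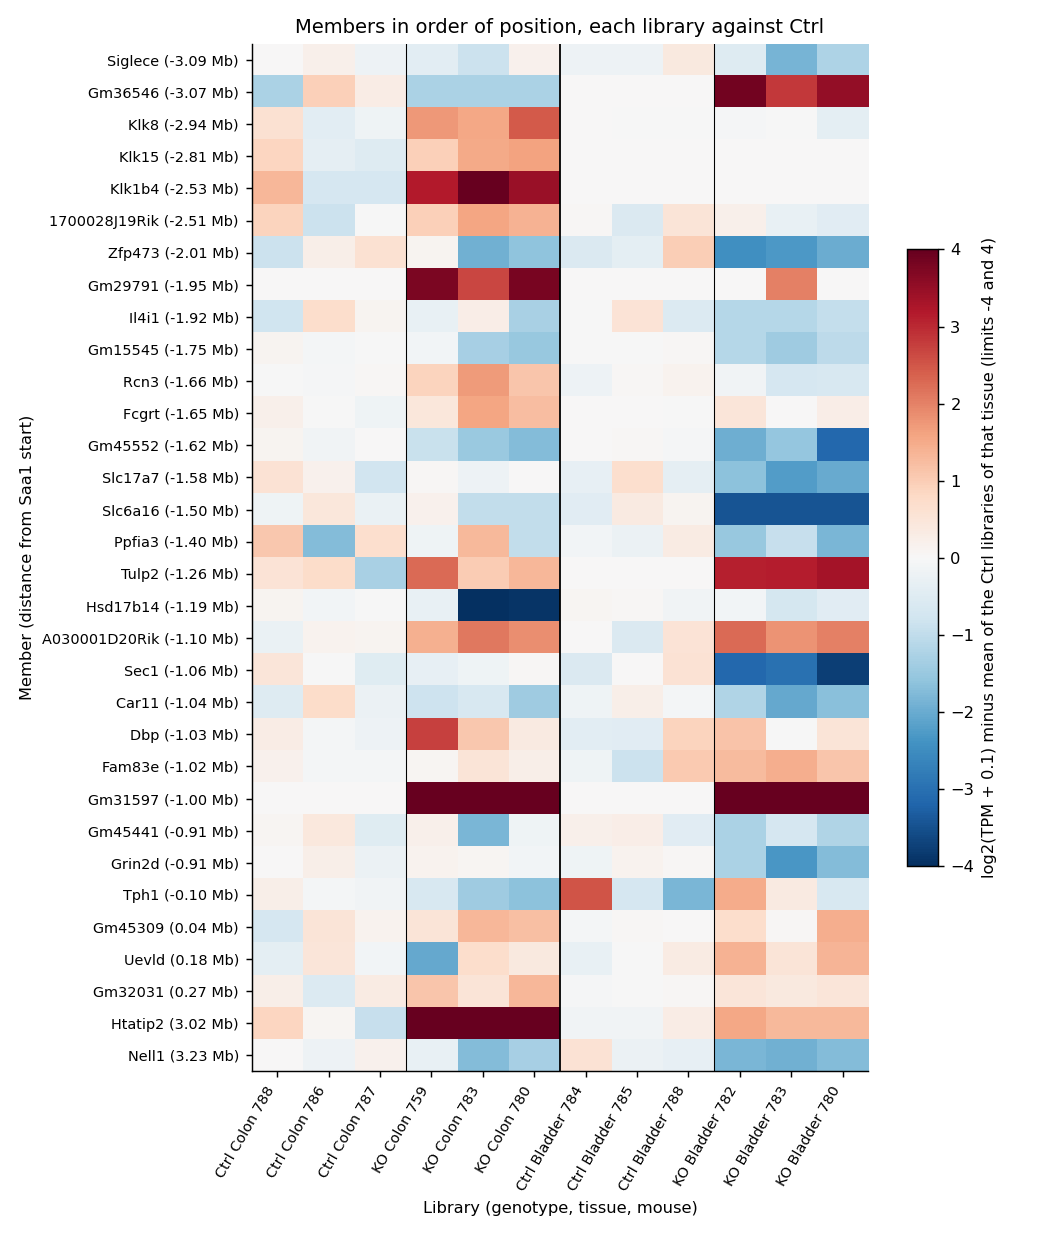
Each library as log2(TPM + 0.1) minus the mean of the 3 Ctrl libraries of its tissue, for the 32 members with no overlap between genotypes and a log2 fold change of at least 1 in either direction in colon or bladder, in order along the chromosome. Red is higher and blue lower than Ctrl with colours ending at 4, rows of both colours occur along the window, and Gm31597 and Htatip2 are red in all Y/T KO libraries.

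None of the members closest to *Saa1* passed the test in either tissue. *Saal1*, whose start lies 54.4 kb before that of *Saa1*, was at 4.89, 5.86, and 5.66 TPM (Ctrl) against 6.08, 8.15, and 8.75 TPM (Y/T KO) in colon. *Hps5*, a component in the biogenesis of lysosome-related organelles, starts just after it and stood at 10.4, 17.7, and 10.7 TPM (Ctrl) against 17.5, 23.1, and 24.8 TPM (Y/T KO) in colon. *Gtf2h1*, a subunit of the general transcription factor TFIIH, was at 36.4, 37.7, and 33.5 TPM (Ctrl) against 38.2, 45.8, and 46.9 TPM (Y/T KO) in colon. After rescaling, the Y/T KO values of these 3 genes lay above all Ctrl values in both tissues, without a call. Of all genes, 8.24% were higher without overlap in colon and 10.6% in bladder. *Gm45629*, 57.7 kb before *Saa1*, went the other way with overlap in both tissues. Its log2 fold change was -0.42 in colon and -0.25 in bladder (limma adjusted p = 0.707 and 0.698). Log2 fold changes in colon were 0.50 for *Saal1*, 0.81 for *Hps5*, and 0.31 for *Gtf2h1* (limma adjusted p = 0.509, 0.369, and 0.535). In bladder those of the same 3 genes were 0.46, 0.39, and 0.47 (limma adjusted p = 0.238, 0.218, and 0.178). *Gm45309*, a transcript within an intron of *Hps5* and 44.2 kb from *Saa1*, was at 0.173, 0.510, and 0.380 TPM (Ctrl) against 0.516, 0.978, and 0.891 TPM (Y/T KO) in colon (1.05 on the log2 scale, SE 0.47, limma adjusted p = 0.531). *Tph1*, the enzyme of serotonin synthesis in enterochromaffin cells, was at 17.4, 14.1, and 13.5 TPM (Ctrl) against 9.45, 5.52, and 4.69 TPM (Y/T KO) in colon (-1.20 on the log2 scale, SE 0.28, limma adjusted p = 0.264). The outermost members, *Hmgb1-ps7* at 4720 kb before and *Gm9354* at 4718 kb after, overlapped between genotypes in both tissues.

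By distance, the 62 members tested in colon that start between 1 and 2 Mb before *Saa1* included 11 that were higher and 6 lower without overlap, and the 10 tested within 1 Mb after *Saa1* included 5 higher and 0 lower, beside 8.24% and 7.87% of all genes. Of the 5, *Gm45309* lies within an intron of *Hps5*, so that these 2 are not independent. Within 1 Mb before *Saa1*, 3 of 15 were higher and 1 lower. Between 2 and 3 Mb before *Saa1*, 6 of 22 were higher and 2 lower. Between 3 and 4 Mb before, 2 of 15 were higher and 3 lower, and between 4 and 5 Mb before, 0 of 7 were either. In bladder, 9 were higher and 16 lower of 64 between 1 and 2 Mb before, 1 higher and 8 lower of 20 between 2 and 3 Mb before, and 4 higher and 1 lower of 11 within 1 Mb after, beside 10.6% and 11.4% of all genes. Within 1 Mb before, 3 of 15 were higher and 4 lower in bladder. There, 2 of 16 were higher and 2 lower between 3 and 4 Mb before, and 1 of 8 higher and 0 lower between 4 and 5 Mb before. The called members lay in 3 intervals, 1 to 2 Mb before, within 1 Mb before, and 3 to 4 Mb after.

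Among the gene groups, kallikreins, secreted serine proteases that lie side by side, passed the level filter mostly in colon (6 of 7 members, beside 2 in bladder). *Klk8* was higher in bladder than in colon, at 10.6, 10.5, and 10.5 TPM (Ctrl) against 10.1, 10.5, and 8.03 TPM (Y/T KO), with overlap. Of 6 tested in colon, 3 were higher without overlap and 0 lower, beside 8.24% and 7.87% of all genes, and 0 were called. Among the higher genes, *Klk1b4* had to differ because it passed the level filter through Y/T KO alone. *Klk15* was at 14.7, 6.29, and 5.67 TPM (Ctrl) against 15.7, 23.5, and 24.8 TPM (Y/T KO) in colon (1.40 on the log2 scale, SE 0.39, limma adjusted p = 0.372). *Klk8* was at 0.785, 0.333, and 0.410 TPM (Ctrl) against 1.84, 1.58, and 3.09 TPM (Y/T KO) in colon (1.94, SE 0.43, limma adjusted p = 0.241), and *Klk1b4* at 0.302, 0, and 0 TPM (Ctrl) against 1.33, 2.55, and 1.63 TPM (Y/T KO) in colon (limma adjusted p = 0.139). With all 12 libraries in 1 fit, 7 members passed in colon (75 of all genes), among them *Klk8* and *Klk1b4* (limma adjusted p = 0.0287 and 0.0251). The same 7 passed with the mouse as a block (74 of all genes), these 2 with limma adjusted p = 0.0287 and 0.0252. Of the 7, *Klk1b4*, *Gm29791*, and *Gm31597* had reached the level filter in colon through Y/T KO alone, so that they had to differ. The 10 pancreatic acinar markers summed to 554 to 904 TPM in Ctrl and 709 to 890 TPM in Y/T KO colon, with overlapping ranges. The *Klk1b* genes are close copies, so that reads may have been divided among them, and *Klk1b24* stood at 59.1 TPM in Ctrl bladder 784 and at 0 in both other Ctrl bladders.

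Of 10 neuron and synapse members tested in bladder, 6 were lower without overlap and 0 higher, beside 11.4% and 10.6% of all genes. Of the 10, 1 was called lower (*Car11*), and the median log2 fold change was -0.84. In colon 4 were tested, with 1 lower and 1 higher, beside 7.87% and 8.24% of all genes, and a median of -0.10. *Grin2d*, an NMDA receptor subunit, was at 2.60, 3.20, and 3.01 TPM (Ctrl) against 1.16, 0.498, and 0.814 TPM (Y/T KO) in bladder (-1.78 on the log2 scale, SE 0.32, limma adjusted p = 0.106). *Nell1*, a secreted protein gene 3234 kb beyond *Saa1*, was at 2.82, 1.57, and 1.47 TPM (Ctrl) against 0.450, 0.422, and 0.491 TPM (Y/T KO) in bladder (-1.83, SE 0.37, limma adjusted p = 0.132). The vesicular glutamate transporter *Slc17a7* was at 0.548, 1.20, and 0.541 TPM (Ctrl) against 0.162, 0.0734, and 0.101 TPM (Y/T KO) in bladder (-1.97, SE 0.53, limma adjusted p = 0.188). *Slc17a7* and *Nell1* passed the level filter in bladder through Ctrl alone, so that they had to be lower in Y/T KO. The 4 general neuron markers were at 339 to 464 TPM in Ctrl bladder and 458 to 576 TPM in Y/T KO bladder, ranges that overlap at their ends, and their part in these values was not tested.

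Among ribosome and translation members, *Rpl13a*, a protein of the large ribosomal subunit, was at 1243, 848, and 1154 TPM (Ctrl) against 1429, 1419, and 2169 TPM (Y/T KO) in colon. Of 5 such members tested, 1 was higher and 1 lower without overlap in colon and 2 higher and 2 lower in bladder, and 0 were called. Over all genes, 8.24% were higher and 7.87% lower without overlap in colon, and 10.6% and 11.4% in bladder. The antisense transcript *Gm45552* was at 1.89, 1.57, and 1.77 TPM (Ctrl) against 0.881, 0.553, and 0.452 TPM (Y/T KO) in colon (-1.35 on the log2 scale, SE 0.35, limma adjusted p = 0.332). In bladder it was at 4.51, 4.60, and 4.36 TPM (Ctrl) against 1.08, 1.46, and 0.418 TPM (Y/T KO) (-2.22, SE 0.43, limma adjusted p = 0.121).

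Energy and amino acid metabolism gave 8 tested members, of which 2 were lower and 0 higher without overlap in each tissue. The shares of all genes, which hold for every list here, were 8.24% higher and 7.87% lower in colon. In bladder they were 10.6% and 11.4%. *Ldha*, the lactate dehydrogenase subunit of glycolysis, was at 1127, 893, and 1112 TPM (Ctrl) against 1004, 1457, and 1216 TPM (Y/T KO) in colon, with overlap. Of 10 members of vesicle traffic, 3 were higher and 0 lower in colon and 3 higher and 1 lower in bladder. Transcription factors and co-regulators gave 3 higher and 1 lower of 12 in colon and 0 higher and 3 lower in bladder. Among them, *Dbp*, a clock-controlled factor, varied within groups, at 7.11, 5.43, and 5.00 TPM (Ctrl) against 39.0, 12.2, and 7.48 TPM (Y/T KO) in colon (1.42 on the log2 scale, SE 0.56, limma adjusted p = 0.492). Zinc finger genes (8 tested) had 0 higher and 2 lower in colon and 1 of each in bladder. The lower one in bladder, *Zfp473*, had to be lower because it passed the level filter there through Ctrl alone. The 4 Siglec receptors had 0 in colon and 1 lower in bladder. In the 6 members of DNA repair and transcription machinery, 1 was higher in colon, and 1 higher and 1 lower in bladder. Sugar and lipid modification had 2 higher and 1 lower of 6 in colon and 0 higher and 2 lower of 5 in bladder. A Mas-related receptor, *Mrgprb2*, overlapped between genotypes in bladder. Of the 6 members listed under cell death and stress, *Htatip2* was called in both tissues, and no other member of a list but *Car11* was called in either.

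Of 8 immune cell members, 2 were higher and 1 lower without overlap in colon and 1 higher and 3 lower in bladder. Beside these stand 8.24% higher and 7.87% lower of all genes in colon, and 10.6% and 11.4% in bladder. *Fcgrt*, the neonatal Fc receptor, was at 48.5, 42.4, and 37.5 TPM (Ctrl) against 58.6, 126, and 100 TPM (Y/T KO) in colon (1.12 on the log2 scale, SE 0.27, limma adjusted p = 0.313). *Spib*, a transcription factor of B lymphocytes and dendritic cells, was at 3.34, 3.43, and 5.31 TPM (Ctrl) against 3.04, 1.68, and 1.81 TPM (Y/T KO) in colon. The 4 B lymphocyte markers summed to 11.4 to 23.3 TPM in Ctrl and 8.11 to 15.5 TPM in Y/T KO colon, and their part in these values was not tested. Muscle and cytoskeleton members had 0 higher and 3 lower without overlap of 9 in bladder, beside the same 10.6% and 11.4% of all genes. The striated muscle genes *Mybpc2*, *Hrc*, and *Csrp3* instead followed the skeletal muscle markers. *Mybpc2*, a myosin-binding protein of fast muscle, was at 11.5, 3.19, and 1.24 TPM (Ctrl) against 0.791, 112, and 117 TPM (Y/T KO) in bladder, high in the same mice 783 and 780.

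Between tissues, 52 of the 121 members past the filter in both were called in Ctrl mice, 18 higher in colon and 34 higher in bladder. Of all 16298 genes, 48.6% were called (24.9% higher in colon and 23.7% higher in bladder). *Fam83e*, an epithelial gene of the FAM83 family, led the colon, with 159, 133, and 135 TPM against 0.172, 0.0691, and 0.542 TPM in the bladder of Ctrl mice (log2 difference 9.06, SE 0.36, limma adjusted p = 6.91e-09). *Fut2*, which adds fucose to mucosal glycans, followed (5.17, SE 0.72, limma adjusted p = 1.97e-04), then *Myh14*, a nonmuscle myosin heavy chain (3.16, SE 0.23, limma adjusted p = 7.55e-07), and *E2f8*, a cell cycle repressor (2.57, SE 0.28, limma adjusted p = 1.79e-05). *Ppfia3*, a synaptic scaffold, had a difference of 1.88 without a call (SE 0.74, limma adjusted p = 0.0552), and passed with the mouse as a block (1.90, limma adjusted p = 0.0492). *Htatip2* differed most in the other direction in Ctrl mice (-6.06, SE 0.38, limma adjusted p = 2.88e-07). In Y/T KO mice it did not pass (-0.75, SE 0.38, limma adjusted p = 0.120). Next in size among those higher in bladder were *Klk8* (-3.96, SE 0.32, limma adjusted p = 1.55e-06), *Dbp* (-2.84, SE 0.56, limma adjusted p = 0.00172), *Mamstr*, a co-activator of MEF2 (-2.60, SE 0.47, limma adjusted p = 6.72e-04), and *Plekha4* (-2.59, SE 0.32, limma adjusted p = 4.03e-05).

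In Y/T KO mice, 53 of the 121 members were called between tissues, 29 higher in colon and 24 higher in bladder, beside 49.6% of all genes (25.9% and 23.8%). *Fam83e* (8.10, SE 0.36, limma adjusted p = 1.53e-08) and *Fut2* (5.14, SE 0.72, limma adjusted p = 2.05e-04) again stood higher in colon, and *Klk8* again stood higher in bladder (-1.87, SE 0.32, limma adjusted p = 4.73e-04).

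**Figure D4:**
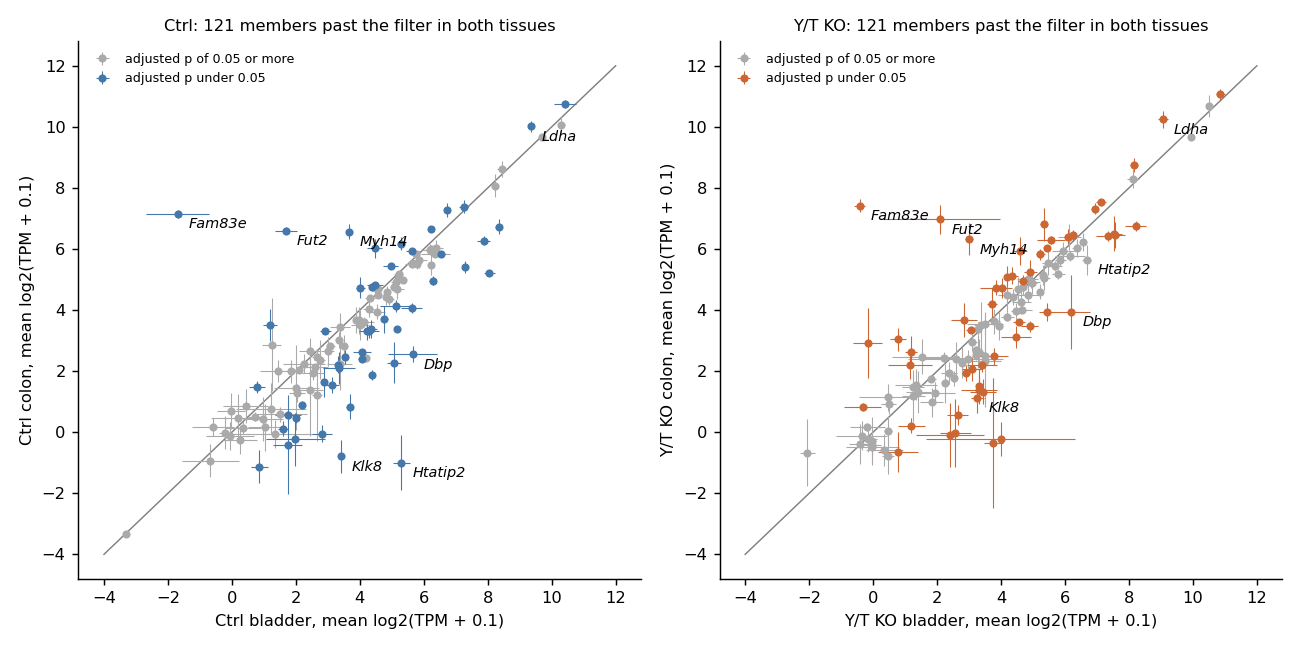
Mean log2(TPM + 0.1) in colon against bladder for the 121 members past the filter in both tissues, in Ctrl (left) and Y/T KO mice (right). Bars are the SD of 3 libraries, the line marks equal levels, coloured points pass a limma adjusted p of 0.05, and Htatip2 lies far below the line in Ctrl mice and near it in Y/T KO mice, whereas Fam83e and Fut2 lie above it in both.

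At the threshold of membership, *Gm45309* and *Gm21028* lay just inside (0.516 TPM as the third highest library of the better tissue) and *Gm19246* (0.498 TPM) and *Gm10109* (0.497 TPM) just outside.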

How the data were processed

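Whole colon and bladder RNA was sequenced after TruSeq preparation on an Illumina NextSeq. The authors deposited StringTie gene tables after HISAT2 alignment to GRCm38, with coverage, FPKM, and TPM for each gene. The submitters' processing notes name no versions, and the strand setting is not given in the sources used here. The values hold no read counts, so that no count model was used. TPM of rows with the same gene were summed, divided by median-of-ratios size factors, and tested as log2(TPM + 0.1) with limma 3.58.1 in R 4.3.3 (trend and robust, two-sided, Benjamini-Hochberg over all genes tested), for genes that reached 0.5 TPM in 3 or more libraries of that tissue. Fold changes are on this scale, which understates those of low genes. Deposited FPKM served as an alternative. The interaction and tissue comparisons used all 12 libraries. Values per library are the deposited TPM, and no overlap was judged after rescaling. The limma procedure was tested on simulated data.

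Because 3 mice gave both tissues, the mouse was entered as a replicate block (duplicateCorrelation, statmod 1.5.0) as an alternative. Deviations from the group means correlated at a mean of 0.0440 in the 3 same-mouse pairs and -0.00890 in the 15 other pairs. The members and gene lists were chosen with earlier results of these data known. Named were called members, those of largest change without overlap in each direction and tissue, the highest in mean level overall and per list, those of largest tissue difference, the nearest and outermost around *Saa1*, neighbours of called members, and those at the threshold. *Csrp3*, *Hrc*, *Klk1b24*, *Mybpc2*, *Nell1*, and *Spib* were named after their values were seen. Promoter sequences are from RefSeq (GRCm38.p6).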

Additional observations from a re-analysis of the deposited data

Results flagged for a closer look

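The difference between the effects of the genotype in colon and in bladder passed the interaction test for 1 member, *Htatip2*. Its log2 fold change was 5.31 larger in colon than in bladder (SE 0.53, limma adjusted p = 0.00290 over 16298 genes). The 3 Ctrl colons were at 0.163 to 0.805 TPM and the 3 Y/T KO colons at 34.0 to 64.4 TPM, whereas all 6 bladders were at 35.3 TPM or more. The call held without any 1 of the 12 libraries (limma adjusted p from 2.59e-04 to 0.0164).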

How the results depend on the processing

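With 3 libraries a group, calls in both tissues hinged on single libraries, and the number of all genes called moved too. In bladder, 4 members (55 of all genes) were called in the reported fit, 8 (67) with all 12 libraries in 1 fit, 8 (69) with the replicate block in that fit, 7 (62) without trend and robust, 9 (140) at an adjusted p under 0.1, and 0 to 1 (11 to 51) when 1 library was left out. Without the 2 bladder libraries of most skeletal muscle marker RNA, an alternative chosen after seeing the data, 0 (18) were called and the groups did not overlap for 89 members (67.4%, beside 55.5% of all genes). In colon, 2 members (24 of all genes) were called in the reported fit, 7 (75) with all 12 libraries, 7 (74) with the replicate block, 1 in a window of 2 Mb on each side, and 0 to 4 (5 to 63) with 1 library left out. The count without overlap in colon was 26 in the 2 Mb window, which holds fewer members, and 44 to 71 with 1 library left out (33.3% to 54.2%, beside 22.3% to 34.8% of all genes), and the median log2 fold change then ranged from 0.05 to 0.23. For the interaction, 2 (24 of all genes) were called at an adjusted p under 0.1, and 1 to 3 (6 to 28) with 1 library left out. The interaction of *Gm15545*, 0.22 with all libraries, was -0.22 without Y/T KO colon mouse 759 and up to 0.48 with another library left out. The cause of these changes was not tested. Among the values of single genes, 850 kept direction and side of the threshold, 49 came past it, 34 no longer passed, and 1 reversed. The 49 include unchanged values that passed only because the threshold was raised to an adjusted p under 0.1. Between tissues, the replicate block gave 54 called members in Ctrl and 55 in Y/T KO mice, beside 52 and 53 without it, and brought *Ppfia3* past the threshold. Depth of 2.81 to 3.94 gigabases leaves levels near 0.5 TPM imprecise, and read counts were not analysed here.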
